A study of Mus musculus with 20 samples.

Results

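The 10 genes described here encode desaturases and elongases, the enzymes that put double bonds into fatty acids and lengthen their chains: Fads1, Fads2, Fads3, Fads6, Scd2, Elovl1, Elovl2, Elovl3, Elovl5 and Elovl6. They were chosen by symbol from the 55487 gene identifiers counted in mouse liver, and all 10 had enough counts to be tested in every comparison. The livers came from female C57BL/6J mice aged 28 weeks at the end, with 1 library from each mouse. The mice in 1 group, with 5 libraries, ate chow, a low-fat and high-carbohydrate feed. The others ate a high-fat diet (HFD) and were then moved for 10 weeks to isocaloric high-fat diets in which 50% of the protein came from fishmeal made of salmon by-products (5 libraries), from salmon filet (6) or from beef (4), with casein as the remainder. Of the freeze-dried ingredients, salmon filet held the most marine omega-3 fatty acids, then fishmeal, then beef. In the final diets the fish groups were given equal total omega-3, more than with beef, while omega-6 was highest with fishmeal and lowest with salmon filet, and cholesterol was highest with fishmeal. All high-fat diets contained lard, and soybean oil was added to balance their fat, most with fishmeal and least with salmon filet. The paper gives no amounts of long omega-3 in the final diets, and equal total omega-3 need not mean equal long omega-3. Pooling the fish diets does not allow for such a difference, and each is also compared separately below. The question was whether mRNA of these enzymes differed with the long omega-3 fatty acids eaten, so both fish diets together (11 libraries) were compared with beef and with chow. A fish diet differs from chow in its whole composition, so that fish and high-fat feeding cannot be told apart in the comparison with chow.

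Mammals cannot make the parent omega-3 and omega-6 fatty acids, and the liver converts those eaten into long, highly unsaturated ones. Fads2, the delta-6 desaturase, and Fads1, the delta-5 desaturase, alternate with the elongases Elovl5 and Elovl2 in this path, which ends with chain shortening in peroxisomes. Scd2, a delta-9 desaturase, makes monounsaturated fatty acids, Elovl6 lengthens the main product of fatty acid synthesis, and Elovl1 and Elovl3 make saturated and monounsaturated chains of very great length. In liver, the transcription factor SREBP-1c turns on many of these genes, and long polyunsaturated fatty acids are known to hold it back.

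The library of mouse 31 is labelled as salmon filet, while the heading of its count column names beef. It was kept as salmon filet, and the salmon filet, beef and fish values below follow this label unless said otherwise. The paper describes diet groups of equal size, which results from counting mouse 31 as beef and not from the labels, and calls that change when it is counted as beef are given both ways. Counts ranged from 42526234 to 70266136 per library. Protein-coding genes took 93.2% to 95.6% of them except in the beef-fed mouse 35, with 84.3%. The scaling factor of the trimmed mean of M-values (TMM) was lowest in the fishmeal-fed mouse 12, at 0.867, against 0.898 to 1.08 in the others, which raises the scaled values of that mouse. The 6 hepatocyte markers summed to 91600 to 124000 CPM (counts as a rate per library total, TMM-scaled unless said otherwise) in every library, and none of them was called between diets. In these bulk samples, fewer cells of a type and less RNA per cell cannot be told apart.

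The sequence before the start of 2 members is shown because Elovl1 was the member called against chow with both fish diets, and Elovl5, a polyunsaturated elongase, had among the smallest unadjusted p-values between the fish diets. Both come from RefSeq promoter windows on GRCm38.p6 and are read 5′ to 3′ up to the base before the GENCODE start, which for Elovl5 lies 1 base before the RefSeq start, so that its run is 249 bases long. Capitals mark the E-box CACGTG, the CCAAT box and the GC box GGGCGG, each on either strand.
Elovl1, chr4:118427843-118428092, plus strand: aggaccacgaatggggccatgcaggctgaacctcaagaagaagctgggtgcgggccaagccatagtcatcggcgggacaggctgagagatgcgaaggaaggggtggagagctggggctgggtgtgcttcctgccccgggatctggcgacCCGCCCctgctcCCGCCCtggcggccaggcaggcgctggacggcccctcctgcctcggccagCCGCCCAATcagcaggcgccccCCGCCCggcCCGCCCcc
Elovl5, chr9:77917115-77917363, plus strand: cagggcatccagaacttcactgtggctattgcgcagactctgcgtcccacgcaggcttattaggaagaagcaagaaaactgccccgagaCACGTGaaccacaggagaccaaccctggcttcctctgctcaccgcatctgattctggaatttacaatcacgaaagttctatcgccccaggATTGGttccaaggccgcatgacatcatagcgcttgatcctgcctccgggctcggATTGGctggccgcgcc
The Elovl1 window held 5 GC boxes on the other strand and 1 CCAAT box, which begins at position −35 from the RefSeq start and overlaps one of the GC boxes. Counted from its RefSeq start at position 77917365, the Elovl5 window held an E-box at −161 and 2 CCAAT boxes on the other strand, at −71 and −17, and no GC box. Among 32851 RefSeq promoters, 6.02% held the E-box within 250 bases, 33.8% the CCAAT box and 32.7% the GC box. The sterol regulatory element TCACNCCAC was present in 1.05% of promoters and in no window of the 7 members that had an entry (Fads2, Fads3, Fads6, Elovl1, Elovl2, Elovl5 and Elovl6). RefSeq gives Elovl1 and Elovl2 a window at another start as well, which is not printed. AGGTCA, the core of many nuclear receptor sites, was present in 14.0% of promoters. Among the members it lay in the windows of Fads6 and Elovl6 and in the unprinted window of Elovl1.

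Per unit of transcript length, the path to long polyunsaturated fatty acids was the most abundant. Mean TPM, the deposited measure that allows for gene length, over the 20 livers was 733.6 for Fads2, 656.2 for Elovl5, 384.7 for Elovl2 and 329.9 for Fads1. Elovl6 followed with 62.1 TPM, then Fads6 with 48.8, Elovl1 with 29.2, Elovl3 with 9.23, Scd2 with 4.12 and Fads3 with 1.82. Fads1 (19:10182888-10196877, GRCm38), Fads2 (19:10062765-10101746) and Fads3 (19:10041569-10060110) lie side by side on chromosome 19, where Scd2 (19:44293674-44306864) and Elovl3 (19:46131897-46135694) are also found. Scd2 shared 3.97% of its 50-base sequences with other genes, among them the far more abundant Scd1, so reads of Scd1 could add to its counts. Elovl6 shared 3.98%, Fads6 1.69% and the other members 0.152% or less.

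**Figure D1:**
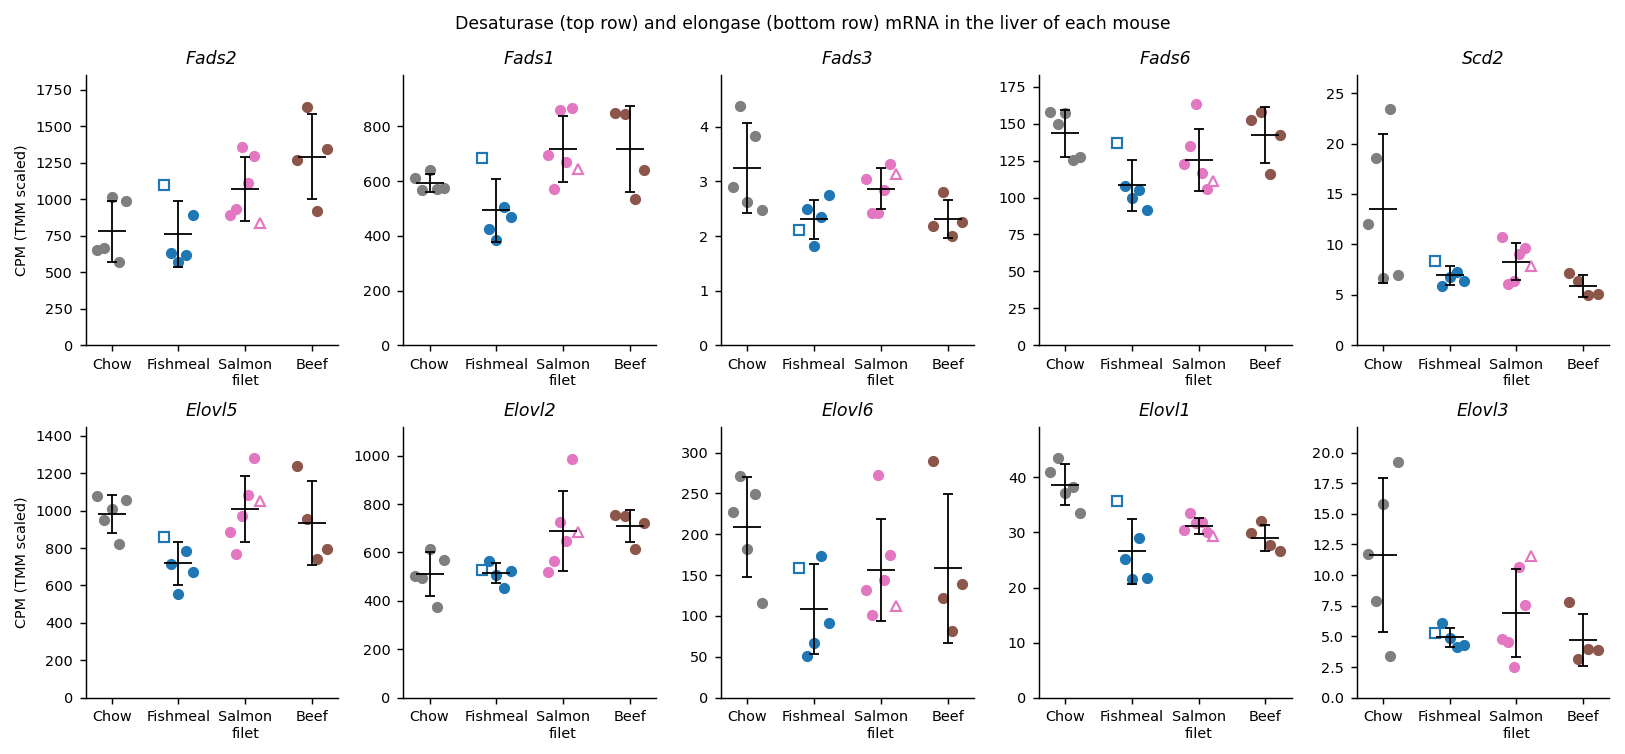
TMM-scaled CPM (vertical axis from 0) of each desaturase and elongase in the liver of each mouse, by diet; bars are the mean and SD, the open square is the fishmeal-fed mouse 12 and the open triangle is mouse 31, labelled salmon filet. In the Elovl1 panel the chow-fed mice lie at 33.6 to 43.6 CPM, and of the 15 mice on high-fat diets only mouse 12 reaches into that range.

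Against chow, 2 of the 10 members were called in the fish-fed mice, and both were lower: Elovl1 and Scd2. Of all 16959 genes tested, 4.17% were called lower. The changes were 0.752-fold for Elovl1 and 0.566-fold for Scd2 (edgeR quasi-likelihood test, Benjamini-Hochberg adjusted p = 0.0228 and 0.0422). Neither gene of the delta-6 and delta-5 steps was called, with log2 fold changes of 0.26 for Fads2 (95% interval −0.17 to 0.68, adjusted p = 0.497) and 0.05 for Fads1 (−0.29 to 0.39, adjusted p = 0.889). The median over the members was −0.30, against 0.00 over all genes, and 4 of the 10 had an unadjusted p under 0.05, as had 22.6% of all genes.

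Beef against chow, a comparison of the high-fat diet without fish, called 0 members with edgeR, while 6 had an unadjusted p under 0.05, against 17.7% of all genes. The share of all genes called in either direction was 2.49%. By DESeq2, 4 members were called, Fads2 and Elovl2 higher and Elovl1 and Scd2 lower, and 6.66% of all genes. The direction of each of these was the same with edgeR, which used the same counts and so gives no separate support. The median over the members was −0.25.

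Against beef, no member was called in the fish-fed mice by edgeR, DESeq2 or limma, and edgeR called none of the 17029 genes tested (0.0%). Unadjusted p-values were under 0.05 for 3 members, against 2.71% of all genes. They were Fads2, with a log2 fold change of −0.47 (95% interval −0.90 to −0.04), Fads6, with −0.27 (−0.54 to −0.01), and Scd2, with 0.38 (0.04 to 0.73), all at an adjusted p of 0.999. With mouse 31 counted as beef, none of them stayed under 0.05 unadjusted. For Elovl1 the difference was 0.01 (−0.24 to 0.25) and for Elovl5 −0.08 (−0.47 to 0.30), while for Elovl3 (−0.36 to 1.08) and Elovl6 (−1.02 to 0.56) the intervals still allow a change of 2-fold. The sign for Elovl3 depends on mouse 31: fish against beef gave 0.36, and −0.15 (−0.82 to 0.52) with that mouse as beef, salmon filet against beef 0.57 and −0.01, and fishmeal against beef 0.06 and −0.30. Any 2 of the comparisons fish with beef, fish with chow and beef with chow share libraries, and so their values are not independent.

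**Figure D2:**
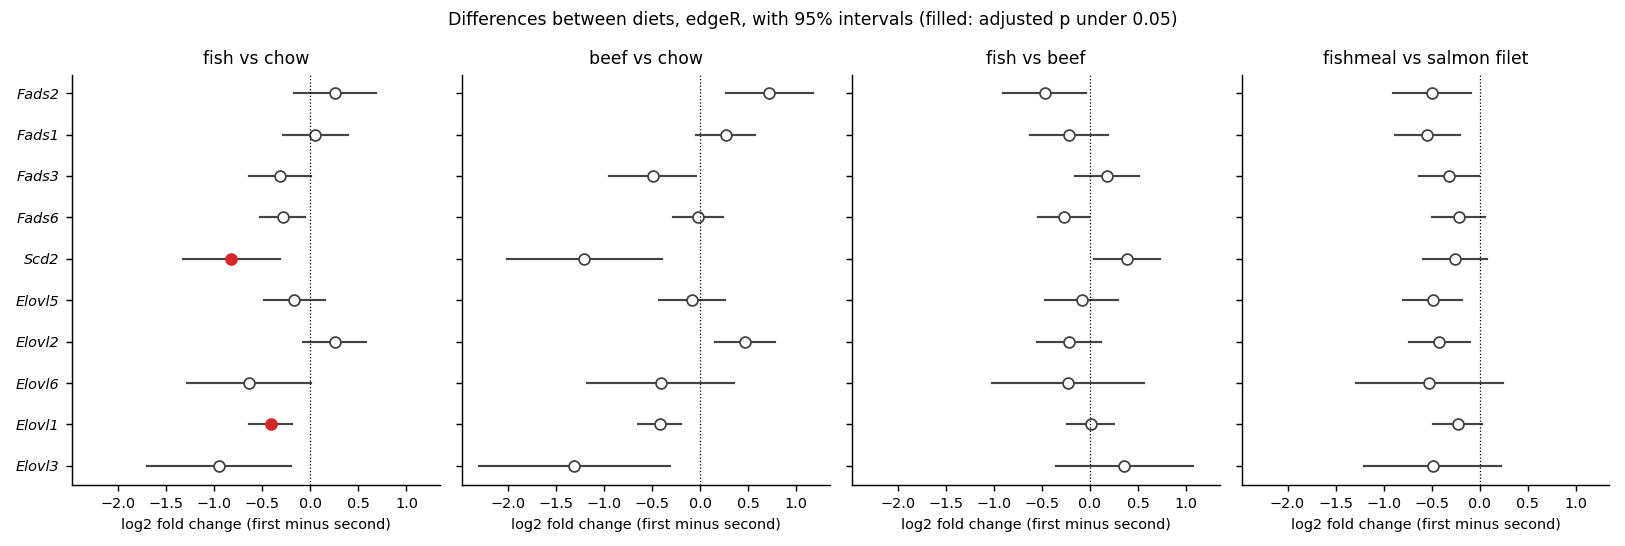
Log2 fold change (horizontal axis, first diet minus second) of each member in 4 comparisons, with 95% intervals; filled points had an adjusted p under 0.05. Filled points appear for Scd2 (−0.82) and Elovl1 (−0.41) in fish against chow, and all 10 points lie below 0 in fishmeal against salmon filet.

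Fads2, for the first and slowest step of the path, had its highest mean on beef. TMM-scaled CPM were 653, 665, 1019, 571 and 993 in the chow-fed mice, 1096, 633, 572, 619 and 895 with fishmeal, and 1273, 1632, 920 and 1348 with beef. The 6 salmon filet values ran from 837 to 1360 with a median of 1023. The lowest beef value lies inside the chow range, and the beef and salmon filet mice overlap. Beef against chow gave a log2 fold change of 0.72 (95% interval 0.26 to 1.18) that missed the threshold (adjusted p = 0.0959). Leaving out 1 library gave 0.59 (without beef mouse 35, the value of 1632, adjusted p = 0.218) to 0.85 (without beef mouse 39). Fishmeal against beef gave −0.77 (−1.25 to −0.29), with an adjusted p of 1.0.

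Fads1, which acts later in the path, was read at 569 to 641 CPM with chow, 385 to 683 with fishmeal, 570 to 869 with salmon filet and 534 to 850 with beef. Without the fishmeal-fed mouse 12, the value of 683, the fishmeal mice reached only 505 CPM and lay below every mouse on the other diets. The salmon filet and beef means were 718.3 ± 120 (SD, n = 6) and 718.2 ± 157 (n = 4), and their difference was 0.01 on the log2 scale (−0.34 to 0.36). With mouse 31 counted as beef the means were 732.7 and 703.8, and the difference was 0.07 (−0.27 to 0.41). Fads3, whose best known product is an unusual double bond in sphingoid bases, gave 1.82 to 4.38 CPM over all 20 livers, from 86 to 267 counts per library, and was called in no comparison.

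Fads6, a member of the family without a settled substrate, ranged from 126 to 158 CPM with chow, 91.7 to 137 with fishmeal, 106 to 163 with salmon filet and 116 to 158 with beef. The fishmeal values lay below every chow value apart from mouse 12, at 137 CPM. The log2 fold change of fishmeal against chow was −0.42 (−0.67 to −0.17, adjusted p = 0.0737). Fish against chow gave −0.29 (−0.53 to −0.05, adjusted p = 0.130), which was called without the salmon filet mouse 25 alone (adjusted p = 0.0415). Scaled to library totals alone, an alternative chosen after seeing the data, no fishmeal mouse overlapped chow and the adjusted p was 0.0251.

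Scd2 was read at 12.0, 18.6, 6.67, 23.5 and 7.00 CPM in the chow-fed mice, 5.89 to 8.36 with fishmeal, 6.07 to 10.7 with salmon filet and 4.99 to 7.19 with beef. Its chow values fall apart, with the 3 mice 1, 2 and 7 above every mouse on a high-fat diet and mice 5 and 10 among them. The log2 fold change of fish against chow was −0.82 (−1.32 to −0.32). The call was kept in 4 of the 16 fits that left out 1 library (chow mice 5 and 10, salmon filet mice 22 and 27), and without chow mouse 7 the value was −0.53 (adjusted p = 0.196). With mouse 31 counted as beef the adjusted p was 0.0535. Beef against chow gave −1.21 (−2.02 to −0.40), which was not called (adjusted p = 0.117). The 6 T and B lymphocyte markers summed to 5.04 to 11.1 CPM with chow, 2.85 to 4.56 with fishmeal, 2.01 to 5.29 with salmon filet and 2.58 to 5.30 with beef. Of the 6, 4 were called lower in fish than in chow, and 0 were called in beef against chow. Their part in the Scd2 result was not tested.

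Elovl5, the elongase of the middle steps, had its lowest mean in the fishmeal group. It was read at 1078, 950, 1007, 824 and 1054 CPM with chow and at 860, 715, 557, 783 and 674 with fishmeal. The salmon filet mice ran from 768 to 1280 CPM, with a median of 1014, and the beef mice from 739 to 1238. On TMM-scaled values only mouse 12 of the fishmeal group reaches the chow range, and in TPM no fishmeal mouse does. Fishmeal against chow gave −0.46 on the log2 scale (−0.74 to −0.19, adjusted p = 0.0656), and without mouse 12 it was −0.52 (adjusted p = 0.0361). Salmon filet against chow gave 0.04 (−0.23 to 0.32).

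Elovl2, the elongase that leads to docosahexaenoic acid, was read at 503, 495, 612, 376 and 567 CPM with chow, at 529.1, 564.4, 506.1, 452 and 522 with fishmeal and at 756, 750, 614 and 722 with beef. Salmon filet values ran from 519 to 987. Every beef value lay above every chow and every fishmeal value, though the lowest beef value barely passed the highest chow value (613.65 against 612.14 CPM). How many of all genes separated in this way was not counted. Neither comparison was called over all genes: beef against chow gave 0.47 (0.16 to 0.78, adjusted p = 0.110), and fishmeal against beef gave −0.47 (−0.73 to −0.21, adjusted p = 0.844). Fishmeal against chow gave 0.00 (−0.28 to 0.29). Fish diets together did not separate from beef (−0.22, −0.55 to 0.12).

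Elovl6 varied widely inside each diet, from 116 to 271 CPM with chow, 50.5 to 174 with fishmeal, 101.1 to 272 with salmon filet and 82.1 to 289 with beef. All 4 ranges overlap. The log2 fold change of fish against chow was −0.64 (−1.28 to 0.01, adjusted p = 0.226). Deviations of Elovl6 from its diet means followed those of Scd1, a delta-9 desaturase and target of SREBP-1c (Pearson r = 0.847 over the 20 livers, Spearman rho = 0.788, adjusted permutation p = 0.00375 and 0.0232 over 75 relations, r = 0.831 without the 2 farthest livers). It was the only one of the 75 relations with an adjusted p under 0.05 on both measures. With Srebf1, the gene of SREBP-1c, Elovl6 gave r = 0.085 (adjusted permutation p = 0.812). No member had an adjusted p under 0.05 with Srebf1, and the largest r in size was that of Elovl3, −0.537 (adjusted permutation p = 0.0825). Fads1 and Elovl5 gave r = 0.768 (adjusted permutation p = 0.0264) and Fads1 and Fads2 r = 0.719 (adjusted permutation p = 0.0214), with rho of 0.701 and 0.654 that missed the threshold (adjusted permutation p = 0.0617 and 0.0579).

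Elovl1, the elongase of very long saturated and monounsaturated chains, was read at 40.9, 43.6, 37.1, 38.2 and 33.6 CPM with chow, at 35.7, 25.1, 21.5, 29.0 and 21.7 with fishmeal, and at 29.8, 32.0, 27.7 and 26.7 with beef. The salmon filet mice ran from 29.4 to 33.5 CPM. Mouse 12, at 35.7 CPM, was the only mouse on a high-fat diet to overlap chow. On the deposited TPM scale, all 15 mice on high-fat diets (20.6 to 31.0) lay below all 5 chow-fed mice (31.8 to 44.1). The share of all genes that separated so was not counted.

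The log2 fold change of Elovl1 against chow was −0.41 for fish (−0.63 to −0.19), −0.55 for fishmeal (−0.84 to −0.26, adjusted p = 0.0444) and −0.30 for salmon filet (−0.47 to −0.14, adjusted p = 0.0388). The share of all genes called lower was 1.84% for fishmeal and 2.2% for salmon filet, and Elovl1 was the 1 member called in each. DESeq2 called 5 members lower with fishmeal, Elovl1, Elovl3, Elovl5, Fads6 and Scd2, and 3.05% of all genes. Beef against chow gave −0.42 (−0.65 to −0.20) and missed the threshold (adjusted p = 0.0540). With mouse 31 counted as beef, Elovl1 was called in beef against chow (adjusted p = 0.0312) and no longer in salmon filet against chow (adjusted p = 0.0569). For fish against chow it was called in 13 of 16 fits that left out 1 library, and lost without chow mouse 1, 2 or 7 (highest adjusted p = 0.0791). The calls for the separate fish diets were kept in 2 of 10 fits for fishmeal (without mouse 10 or 12) and 3 of 11 for salmon filet (without mouse 5, 10 or 23).

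A clock score, the standardised mRNA level of Arntl, Clock and Npas2 minus that of Nr1d1, Nr1d2, Dbp, Tef, Per3 and Ciart, was 0.93 to 2.66 in the chow-fed mice, −2.68 to 0.79 with fishmeal, −2.93 to 1.84 with salmon filet and −3.41 to 0.07 with beef. With this score as a covariate, fish against chow gave −0.28 for Elovl1 (adjusted p = 0.485) and −0.39 for Scd2 (adjusted p = 0.742), and neither was called. Calls over all 16959 genes fell from 1308 to 160. Every chow score lay above every fishmeal and beef score, so that the score and the diet cannot be fully told apart.

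**Figure D3:**
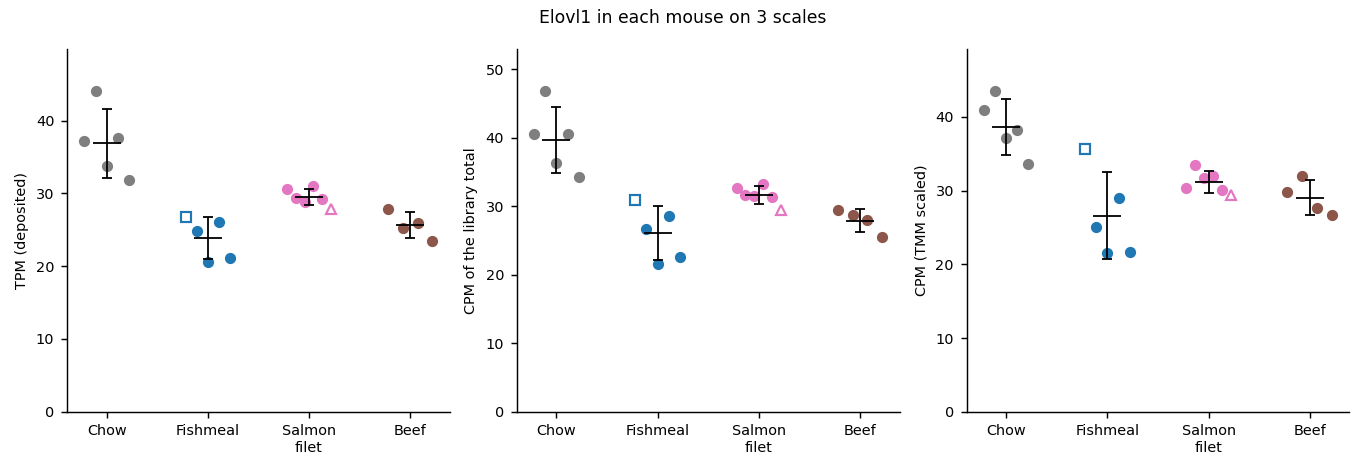
Elovl1 in each mouse as deposited TPM, as CPM of the library total and as TMM-scaled CPM (vertical axes from 0), by diet; bars are the mean and SD, the open square is mouse 12 and the open triangle is mouse 31. On the first 2 scales the highest mouse on a high-fat diet (31.0 TPM and 33.3 CPM) lies below the lowest chow-fed mouse (31.8 TPM and 34.3 CPM), and on the last the open square overlaps chow.

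Elovl3, known for its daily rhythm and for making very long chains in skin and brown fat, was read at 11.8, 7.92, 15.8, 3.43 and 19.2 CPM with chow. Values were 4.09 to 6.05 with fishmeal, 2.47 to 11.5 with salmon filet and 3.12 to 7.84 with beef. All but chow mouse 7 of the chow-fed mice lay above all fishmeal mice. Fish against chow gave −0.95 (−1.70 to −0.20, adjusted p = 0.117). Without mouse 7 it was −1.19 (adjusted p = 0.0406), and without mouse 10 it was −0.70 (adjusted p = 0.286). With the clock score as a covariate it was −0.53 (adjusted p = 0.748). Fishmeal against chow gave −1.25 (−2.03 to −0.47, adjusted p = 0.0856), with −1.48 without mouse 7 (adjusted p = 0.00667) and −0.98 without mouse 10 (adjusted p = 0.153).

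Between the fish diets, all 10 members had lower means with fishmeal than with salmon filet, and none was called by edgeR, DESeq2 or limma. The share called over all genes was 0.163%. The median log2 fold change of the members was −0.46, against 0.01 over all genes, and 5 of the 10 had an unadjusted p under 0.05, against 4.11% of all genes. The smallest adjusted p-values were those of Fads1, −0.54 (−0.88 to −0.21, adjusted p = 0.582), and Elovl5, −0.49 (−0.80 to −0.18, adjusted p = 0.615). Without mouse 12 the adjusted p of Fads1 was 0.0691, and calls over all genes rose from 27 to 45. Counting mouse 31 as beef or leaving out any 1 library kept all 10 differences below 0. Against beef, no member was called with fishmeal (0.00607% of all genes) or with salmon filet (0.0%), and 4 members and 1 member had an unadjusted p under 0.05, against 2.28% and 3.59% of all genes. The 1 member for salmon filet was Scd2, at 0.50 (0.11 to 0.89).

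Other genes of the path and its control were followed in lists. Of 11 genes for the other elongation steps and for electrons to the desaturases, none was called between fish and chow (median log2 fold change −0.07), and neither was any of 6 tested relatives, such as Scd1 and the ceramide desaturase Degs1. The share of all genes called higher in that comparison was 3.54%. Of 12 genes for the peroxisomal end of the path, 2 were higher and none lower, among them Scp2, a thiolase and sterol carrier (0.40, adjusted p = 0.0235). Of 11 tested genes that activate or place acyl chains, 1 was lower, Acsl4, which prefers arachidonic acid (−0.87, adjusted p = 0.000768).

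Among 14 regulators, Srebf1, the gene of SREBP-1c, was the 1 called, from 116.3 ± 16.6 CPM with chow (SD, n = 5) to 302.5 ± 70.04 with fish (n = 11), which is 1.38 on the log2 scale (adjusted p = 5.0e-05). Of 10 lipogenic genes under SREBP-1c other than the members, 1 was higher and none lower. Of 16 PPAR-alpha targets, Vnn1 was higher (1.138, adjusted p = 0.0448) and Pdk4, which restrains glucose oxidation, was lower (−1.13, adjusted p = 0.0441). Of 17 clock genes, 6 were higher and none lower. In beef against chow, 10 clock genes were higher and 3 lower, and of the 14 regulators 2 were higher and 1 lower. Between fish and beef, 0 genes of the 9 lists were called by edgeR.

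SREBP-2 targets, which make and take up cholesterol, had a lower median than the desaturases and elongases. In fish against chow 5 of 20 were lower and none higher, with a median log2 fold change of −0.997. Among them were Cyp51 (−1.38), Msmo1 (−1.22), Pmvk (−1.22) and Hsd17b7 (−0.88), which act in cholesterol synthesis. Beef against chow had 7 of 20 lower (median −0.809), fishmeal against chow 17 (−1.852) and salmon filet against chow 3 (−0.526). In fishmeal against salmon filet, 15 of 20 were lower, with a median of −1.31, and the other 8 lists had 0 called by edgeR. The share of all genes called in either direction was 0.163%. The paper had already reported lower cholesterol and steroid synthesis genes for fishmeal against salmon filet in these livers. The list was chosen with that known and gives no independent support. The 10 lipogenic genes had a median of −0.53 in that comparison, close to the −0.46 of the members, and the 16 PPAR-alpha targets one of 0.11.

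**Figure D4:**
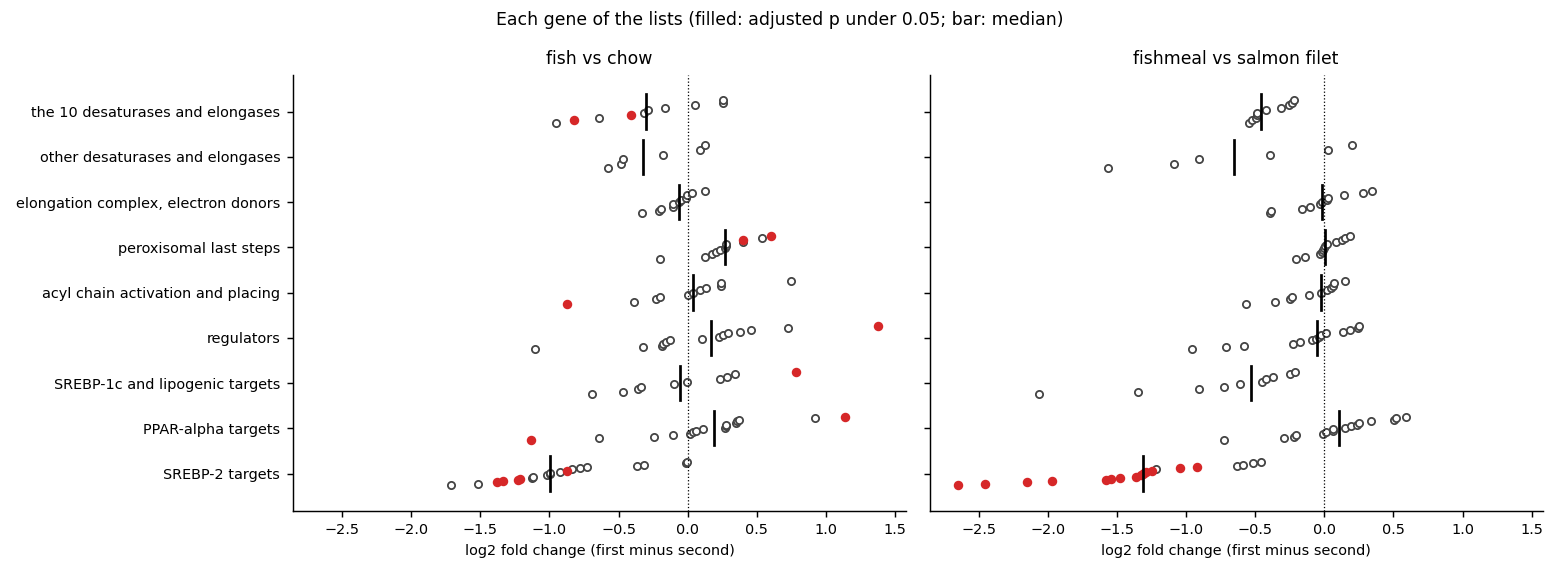
Log2 fold change (horizontal axis, first diet minus second) of each tested gene of the members and of 8 lists, in fish against chow and in fishmeal against salmon filet; filled points had an adjusted p under 0.05 and vertical bars are medians. Filled points between the fish diets are all SREBP-2 targets (15 of 20), with their median at −1.31 and that of the members at −0.46.

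The genes most like each member over the 20 livers were named from 9090 protein-coding genes by Pearson's r of log2 CPM, as a description in which diet, depth and scaling are shared. Elovl1 was most like Cmtm6 (r = 0.897), Srgap3 (0.893) and Pmvk (0.871). For Elovl6 they were Mblac2 (0.89), Echdc1 (0.884) and Acly, which makes the acetyl-CoA used for fatty acid synthesis (0.868). Elovl5 was most like Sc5d (0.8), Fkbp14 (0.797) and Nsdhl (0.793), of which Sc5d and Nsdhl belong to cholesterol synthesis. For Scd2 they were G6pdx (0.826), Ppard (0.819) and Gimap8 (0.816). Fads1 had Pstpip2 (0.77), Insig1, which retains SREBP in the endoplasmic reticulum (0.767), and Hlcs (0.764). The first in order was Cyp17a1 for Fads2 (0.777), Pygb for Fads3 (0.817), Asl for Fads6 (0.808), Gpam for Elovl2 (0.747) and Tor3a for Elovl3 (0.809).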

How the data were processed

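Strand-specific mRNA libraries of 20 livers were sequenced from both ends. The authors trimmed reads with BBDuk, mapped them with HISAT2 1.2.1 and deposited unnormalised read counts per gene from featureCounts 1.4.6-p1, and a table of TPM. How strand and multiply mapped reads were counted is not given in the sources used here, and the paper prints GRCh38 for this mouse genome. Gene identifiers matched GENCODE M21 on GRCm38 for 55141 of 55487. Groups follow the sample labels. Members and lists were chosen with earlier results of these data known. Counts were tested in R 4.3 with edgeR 4.0 (quasi-likelihood, robust, TMM, filterByExpr at a minimum count of 10, only the libraries compared), adjusted over all genes tested and called at an adjusted p under 0.05. DESeq2 1.42 and limma 3.58 on log2(TPM + 1) of genes averaging at least 0.5 TPM were alternatives. CPM are TMM-scaled over all libraries, with a prior count of 2 on the log scale. Where ranges of diets are said not to overlap, the share of all genes without overlap was not counted. The named genes are the members, list genes called in fish against chow or beef (at most 6 a list) and the 3 most alike genes by r; some genes so chosen are not reported here. Relations between genes used deviations from diet means and permutations within diets. Scripts were tested on simulated data.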

Additional observations from a re-analysis of the deposited data

How the results depend on the processing

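Of 1700 log2 fold changes of members under the alternatives, 43 lost a call and 21 gained one, and no called value changed sign. Only values called in the main fits could lose a call. These were Elovl1 with fish, fishmeal and salmon filet, and Scd2 with fish, all against chow. The 43 losses therefore come from a small part of the 1700. In fish against chow, 2 members were called, and 1 with mouse 31 counted as beef, with genes of at least 1 count or with limma on TPM, 0 with the clock score as covariate, and 0 to 2 with 1 library left out. In beef against chow, 0 were called, but 1 with mouse 31 as beef, 1 with all 4 groups fitted, 1 with library totals alone (chosen after seeing the data), 4 with DESeq2 (Elovl1, Elovl2, Fads2 and Scd2) and 0 to 0 with 1 library left out. In fishmeal against chow, 1 was called, against 5 with DESeq2, 0 with DESeq2 size factors in edgeR, 2 with all 4 groups fitted, 3 with limma on TPM, 3 with library totals alone, 0 with the clock score, and 0 to 3 with 1 library left out; the 3 without mouse 12 were Elovl1, Elovl5 and Fads6. In salmon filet against chow, 1 was called, against 0 with mouse 31 as beef, genes of at least 1 count, all 4 groups fitted, limma on TPM or the clock score, and 0 to 1 with 1 library left out. No alternative called a member between high-fat diets. Calls over all genes moved as well. In fishmeal against chow they were 540, and 675 without mouse 12, 1198 with DESeq2, 492 with library totals alone, 365 with limma and 47 with the clock score. In beef against chow they were 413, and 1092 with DESeq2 and 0 with the clock score. The causes were not tested. No paired analysis was possible because the labels give no numbers shared between mice of different diets. The 4 beef libraries and the 86 to 267 counts of Fads3 limit precision, and the uncalled differences between high-fat diets have intervals that do not show equal levels.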
